A study of Mus musculus with 4 samples.

Results

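Messenger RNAs of 8 proteins of the H/ACA small nucleolar ribonucleoproteins (snoRNPs) and of Cajal bodies were followed in mouse ear fibroblasts: Dkc1, Nop10, Nhp2, Gar1, Naf1, Shq1, Coil and Wrap53. The genes were taken by symbol as a protein family, with no threshold on their values, and each matched a single Ensembl ID, so they make 8 of the 55536 genes counted. H/ACA snoRNPs turn uridines of ribosomal and spliceosomal RNAs into pseudouridines, at sites set by base pairing of the guide RNA that each particle holds. The same core proteins bind the telomerase RNA. Cajal bodies are nuclear bodies in which small nuclear RNAs and telomerase RNA mature, and small Cajal body RNAs (scaRNAs) guide modification there. Fibrillarin, the target of the antibody used here, is the methyltransferase of the other snoRNP class, C/D box, and is found in nucleoli and Cajal bodies. The values below concern messenger RNA reads, not proteins or assembled particles.

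Cells with a high or a low level of AF357425, a C/D box snoRNA, were compared, named by the labels AF357425-High (overexpression, by the sample characteristics) and AF357425-Low (inhibition). The treatment protocol instead describes gapmers directed at AF357425 and a scrambled control, so which transfection made each state is not settled by the labels. All cells were primary fibroblasts from C57BL/6 ears, held with KN93, a calmodulin kinase inhibitor, for 48 h and transfected for 24 h. RNA pulled down with a fibrillarin antibody was depleted of ribosomal RNA and sequenced once per state. Whole-cell RNA was also sequenced once per state. The 4 groups thus hold 1 library each, and none is a pulldown with a control antibody. There is no replicate check of any difference, no test between groups was possible, and every interval is a 95% interval that covers counting error only.

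Reads assigned to genes numbered 25857770 in the pulldown of AF357425-High and 27832061 in that of AF357425-Low, against 22082565 and 21693030 in whole-cell RNA of the same states. Mitochondrial ribosomal RNA took 63.4% and 59.8% of these reads in the pulldowns, against 0.0926% and 0.0583% in whole-cell RNA. Fragments that fell on several genes and were not assigned made up 9.38% and 8.54% of all fragments in the pulldowns, against 1.05% and 1.09% in whole-cell RNA. All 11 fibroblast markers had reads in every library, with summed levels, in reads per 1000000 assigned to genes (CPM), of 4423 for the AF357425-High pulldown and 5314 for the AF357425-Low pulldown, against 10449 and 11938 CPM in whole-cell RNA. Chondrocyte markers summed to 113 and 141 CPM in the pulldowns and to 288 and 203 CPM in whole-cell RNA, in the same order of states. All 5 chondrocyte markers measured in whole-cell RNA had more reads in AF357425-High, among them the cartilage collagen Col2a1 with 1922 reads, against 766 in AF357425-Low, and Cnmd with 99, against 14. These 2 of 5 were higher by more than 2-fold with their counting intervals, beside 0.118% of all measured genes. Cnmd reached the minimum mean of 1 CPM for a measured gene only through AF357425-High. None of the 4 chondrocyte markers measured in the pulldown was, beside 3.47% of genes. Keratinocyte, endothelial, leukocyte, mast cell, skeletal muscle, melanocyte and neural or Schwann cell lists each summed to at most 10.6 CPM in any library, and mast cell markers had 0 or 1 read. The part of these differences in the results below was not tested. In bulk RNA, fewer cells of a type and less RNA per cell cannot be told apart.

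All 8 messenger RNAs were detected in every library. Together they held 1142 reads in the pulldown of AF357425-High cells, against 1566 in that of AF357425-Low cells, levels of 44.2 CPM (41.6 to 46.8) and 56.3 CPM (53.5 to 59.1). In whole-cell RNA they held 3459 reads in AF357425-High, against 3038 in AF357425-Low, or 157 CPM (151 to 162) and 140 CPM (135 to 145). By these totals the summed level was lower in AF357425-High in the pulldown and higher in AF357425-High in whole-cell RNA. The pulldown difference depends on the scaling: the log2 ratio of AF357425-High over AF357425-Low was -0.35 (-0.46 to -0.24) by totals and -0.04 (-0.16 to 0.07) after scaling by the trimmed mean of M values (TMM). In whole-cell RNA it was 0.16 (0.09 to 0.23) by totals and 0.10 (0.03 to 0.18) by TMM. With mitochondrial ribosomal RNA taken out of the total, the sum for the AF357425-High pulldown was 121 CPM (114 to 128), against 140 CPM (133 to 147) for AF357425-Low.

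**Figure D1:**
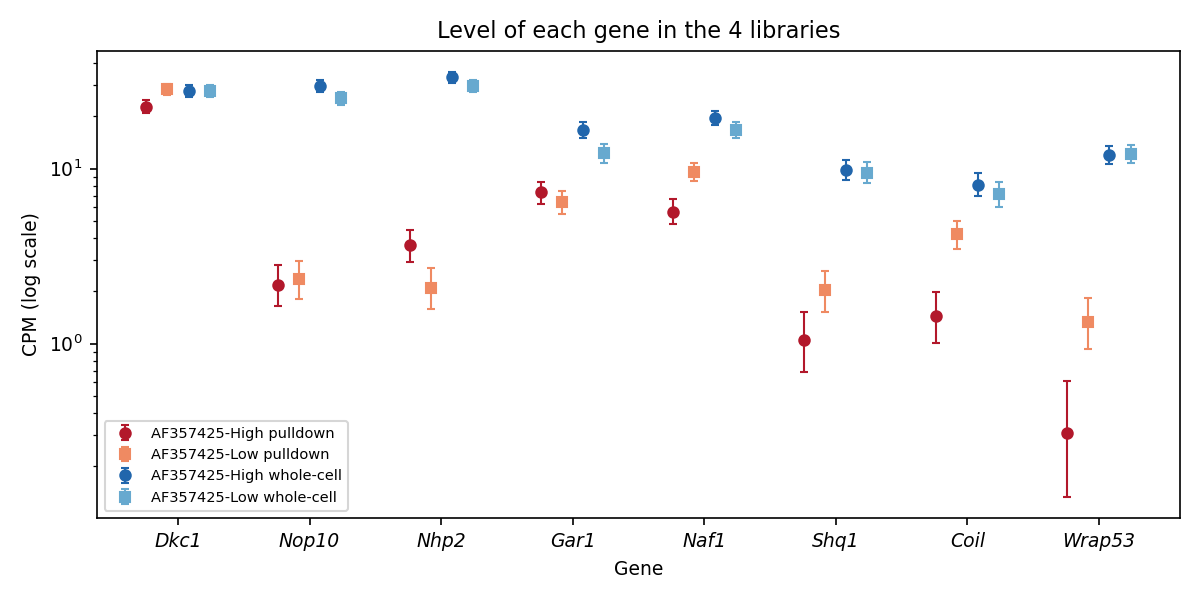
Level of each of the 8 genes in CPM on a log axis, with 95% counting intervals, in the AF357425-High and AF357425-Low pulldowns (red) and whole-cell libraries (blue). Dkc1 lies between 22.6 and 28.3 CPM in all 4 libraries, while the other genes lie lower in both pulldowns than in both whole-cell libraries.

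Whole-cell RNA of the 2 states asks whether the supply of these messenger RNAs differed with AF357425. The ratios that follow are log2 ratios of AF357425-High over AF357425-Low after TMM scaling. Among the core proteins, Gar1, the subunit that joins last and completes the mature particle, had 368 reads in AF357425-High, against 265 in AF357425-Low (16.7 and 12.2 CPM). Its ratio was 0.39 (0.16 to 0.62), the highest of the 8. Nop10, a small protein that stiffens the catalytic subunit, had 655 and 547 reads (29.7 and 25.2 CPM) and a ratio of 0.18 (0.01 to 0.34). These were the only members of the 8 whose interval lay wholly above 0.

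The other core messenger RNAs were close between the states. Dkc1, which encodes dyskerin, the pseudouridine synthase itself, had 614 reads in AF357425-High, against 600 in AF357425-Low, 27.8 and 27.7 CPM, with a ratio of -0.05 (-0.21 to 0.12). Nhp2, which encodes an RNA-binding core protein, had 732 and 640 reads and a ratio of 0.11 (-0.04 to 0.27). Both intervals include 0.

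Messenger RNAs of the assembly factors and of the Cajal body proteins had whole-cell ratios between -0.07 and 0.16. Naf1, which holds the place of Gar1 in the particle while it assembles, had 429 and 362 reads in AF357425-High and AF357425-Low, with a ratio of 0.16 (-0.04 to 0.37). Shq1, the chaperone of dyskerin before assembly, had 217 and 206 reads and a ratio of -0.01 (-0.29 to 0.27). Coil, which encodes coilin, the scaffold protein and marker of Cajal bodies, had 179 and 155 reads and a ratio of 0.12 (-0.19 to 0.44). Wrap53, whose protein binds scaRNAs and telomerase RNA and brings them to Cajal bodies, had 265 and 263 reads and a ratio of -0.07 (-0.32 to 0.18). All 4 intervals include 0.

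Over the 8 genes the median whole-cell ratio was 0.12, against -0.00073 over 13519 measured genes, whose interquartile range was -0.16 to 0.15. Calls required the interval of a gene to lie entirely past a 2-fold difference. None of the 8 was called, and 0.118% of measured genes were higher and 0.133% lower by that rule. An interval wholly above 0 was found for 2 of 8, against 19% of measured genes, and wholly below 0 for 0 of 8, against 19.6%. Signs of the ratios nearest 0 depend on scaling: with library totals Dkc1 had 0.0076 and Shq1 0.049.

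The pulldown of the 2 states asks whether these messenger RNAs held different shares of the reads pulled down with the fibrillarin antibody. By TMM, core messenger RNAs had ratios between -0.02 and 1.11, and those of the assembly factors and Cajal body proteins had ratios below 0. Nhp2 had 94 reads in the pulldown of AF357425-High cells, against 58 in that of AF357425-Low cells (3.64 and 2.08 CPM), a ratio of 1.11 (0.62 to 1.61), above that of 94.3% of measured genes. Gar1 had 189 and 179 reads (7.31 and 6.43 CPM) and a ratio of 0.49 (0.19 to 0.79). Both intervals lay wholly above 0 but not wholly past the 2-fold line, so neither gene was called. With library totals Nhp2 had 0.80 (0.32 to 1.30) and Gar1 had 0.18 (-0.12 to 0.49), an interval that includes 0.

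Dkc1 had 584 reads in the pulldown of AF357425-High cells, against 788 in that of AF357425-Low cells. The TMM ratio was -0.02 (-0.18 to 0.14), and with library totals it was -0.33 (-0.48 to -0.17). Nop10 had 56 and 65 reads and a ratio of 0.20 (-0.35 to 0.73), which turned to -0.11 (-0.65 to 0.43) with library totals. The scaling thus moved the interval of Dkc1 off 0 and turned the sign of Nop10. Library totals moved the median of all genes by -0.30 in the pulldown, and the members moved with it.

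Both assembly factors had fewer reads in the AF357425-High pulldown. Naf1 had 147 reads in AF357425-High, against 266 in AF357425-Low (5.68 and 9.56 CPM), with a ratio of -0.44 (-0.75 to -0.15). Shq1 had 27 and 56 reads (1.04 and 2.01 CPM), with a ratio of -0.64 (-1.36 to 0.05). The interval of Naf1 lay below 0, and that of Shq1 included 0 with TMM but not with library totals (-0.95, -1.67 to -0.26).

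The Cajal body genes had the lowest ratios of the 8. Coil had 37 reads in the pulldown of AF357425-High cells, against 117 in that of AF357425-Low cells (1.43 and 4.20 CPM). Its ratio was -1.25 (-1.82 to -0.71), and 4.41% of measured genes lay lower. With library totals Coil had -1.55 (-2.13 to -1.01) and its whole interval passed the 2-fold line. That scaling moved every pulldown state ratio by -0.30, and no share of all genes past the line by totals is given. Wrap53 had 8 and 37 reads (0.309 and 1.33 CPM), a mean below the minimum of 1 CPM, so it was not among the measured genes of this comparison. Its ratio was -1.80 (-3.11 to -0.67), and with library totals -2.10 (-3.42 to -0.98). Both genes had whole-cell ratios whose intervals include 0, as given above.

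**Figure D2:**
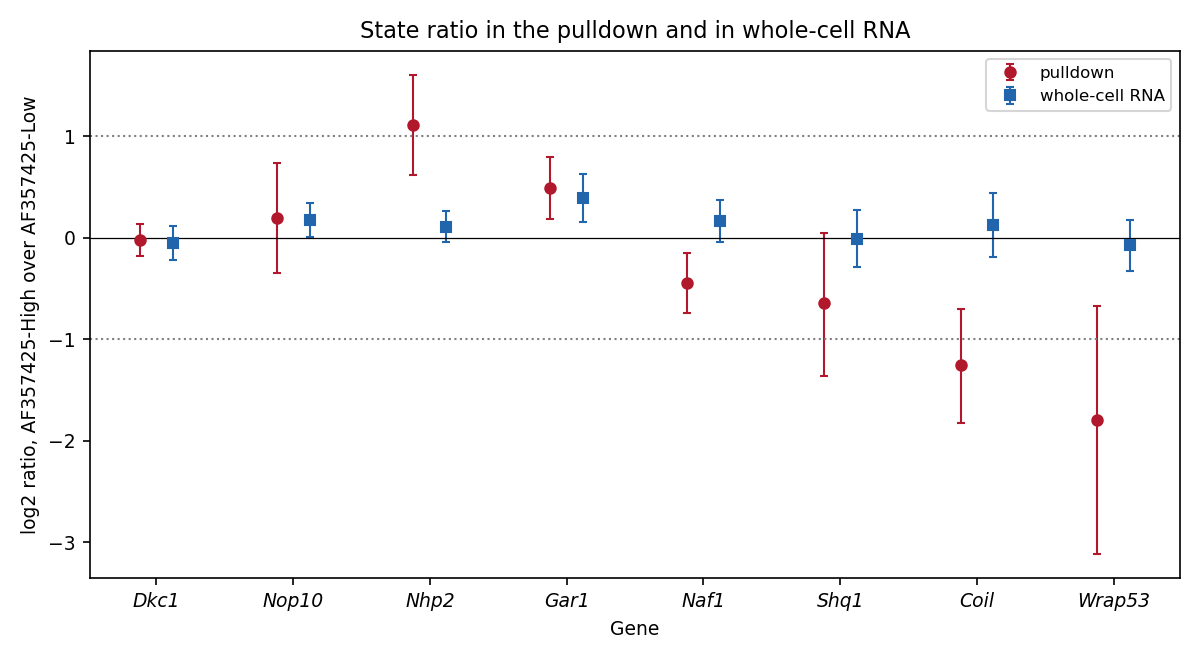
Log2 ratio of AF357425-High over AF357425-Low after TMM scaling for each gene, in the pulldown (red circles) and in whole-cell RNA (blue squares), with 95% counting intervals and dotted lines at 2-fold. Whole-cell ratios lie between -0.07 and 0.39, while pulldown ratios run between 1.11 for Nhp2 and -1.80 for Wrap53. Wrap53 missed the minimum of 1 CPM in the pulldown, and the lowest measured gene of the 8 there was Coil at -1.25.

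The same reads were also summed by role, so their order repeats that of the single genes and is no separate evidence. The 4 core genes held 923 reads in the pulldown of AF357425-High cells, against 1090 in that of AF357425-Low cells, a ratio of 0.17 (0.04 to 0.30) that became -0.13 (-0.26 to -0.01) with library totals. The 2 assembly factors held 174 and 322 reads, a ratio of -0.48 (-0.75 to -0.21), or -0.78 (-1.06 to -0.51) with totals. The 2 Cajal body genes held 45 and 154 reads, a ratio of -1.36 (-1.88 to -0.88), or -1.67 (-2.18 to -1.18) with totals, which is past the 2-fold line. In whole-cell RNA the same sums had ratios of 0.12 (0.04 to 0.21), 0.10 (-0.06 to 0.27) and 0.00 (-0.19 to 0.20). These roles hold few genes each, and Dkc1 alone gave 584 of the 923 core reads in the AF357425-High pulldown. Coil gave 37 of the 45 Cajal body reads there and 117 of the 154 in the AF357425-Low pulldown. The rest came from Wrap53, which was below the minimum of 1 CPM.

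None of the 7 measured members was called in the pulldown, against 3.47% of 10736 measured genes called higher and 2.88% lower. An interval wholly above 0 was found for 2 of 7 and one wholly below 0 for 2 of 7, against 32.4% and 31.9% of measured genes. Their median was -0.02, against -0.00044 for all genes, and over all 8 members, with Wrap53 included, it was -0.23. The interquartile range of all genes was -0.40 to 0.39, wider than the one in whole-cell RNA. Among the 8 members, with Wrap53 included although it missed the minimum, the pulldown state ratio and the log2 genomic span had a Pearson correlation of -0.56 and a Spearman correlation of -0.74, against -0.10 and -0.14 over 10304 genes. For pulldown over whole-cell RNA these correlations with span were 0.09 and -0.05 in AF357425-High, and 0.41 and 0.38 in AF357425-Low. These genes share their libraries, and the part of span in the ratios was not tested.

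Bases next to the transcription starts are shown for the genes at the ends of this range, Nhp2 and Gar1 above 0 and Coil and Wrap53 below 0. RefSeq windows of 300 bases (GRCm38.p6) were matched for 7 of the 8 genes, with 2 windows for Wrap53 and none used for Naf1. Each sequence is the 97 bases just before the start used for its window, read 5′ to 3′ on the strand of the gene. For Gar1 that start lies inside the gene span given below, which ends at 129831407. Part of its sequence thus falls within that span. Capitals mark CCGGAA or its reverse complement TTCCGG, the core of the motif bound by ETS factors.
Nhp2, chr11:51619676-51619772, plus strand: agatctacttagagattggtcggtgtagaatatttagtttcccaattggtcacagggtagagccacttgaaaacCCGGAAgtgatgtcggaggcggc
Gar1, chr3:129831397-129831493, minus strand: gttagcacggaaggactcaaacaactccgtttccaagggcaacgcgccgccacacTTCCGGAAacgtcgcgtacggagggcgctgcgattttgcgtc
Coil, chr11:88973838-88973934, plus strand: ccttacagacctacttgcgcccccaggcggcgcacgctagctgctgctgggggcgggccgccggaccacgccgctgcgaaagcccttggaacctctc
Wrap53, chr11:69580251-69580347, minus strand: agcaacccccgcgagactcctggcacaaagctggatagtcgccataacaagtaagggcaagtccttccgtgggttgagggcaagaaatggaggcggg

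Nhp2 held 1 match in its 300-base window, Gar1 held 2 that overlap each other on opposite strands, and Coil and both Wrap53 windows held 0. Shq1 held 2, and Dkc1 and Nop10 held 0. On either strand, 14.9% of 32851 RefSeq windows of that length held the motif, and 3 of 8 windows of these genes did. The E-box CACGTG, the site of Myc and related factors, was in 1 of the 8 windows, a window of Wrap53 outside the 97 bases shown, and in 7.15% of all windows. CCAAT was in 4 of the 8 windows and 37.4% of all, and TATAAA in 2 of the 8 and 13.6% of all. These motifs were chosen after the windows had been seen, and no capitals mark the last 3. A match describes these letters and is neither a bound site nor a cause.

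The length of 97 bases is the distance between the annotated start of Wrap53 and that of Trp53, the gene of the tumour suppressor p53, which runs the other way from position 69580348. Trp53 had 443 reads in the pulldown of AF357425-High cells, against 461 in that of AF357425-Low cells, a ratio of 0.35 (0.16 to 0.54), against -0.21 (-0.28 to -0.14) in whole-cell RNA. The low pulldown ratio of Wrap53 was thus not shared by its neighbour. Within Wrap53 lies the pseudogene Rps27-ps2 (342 shared bases).

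Other members overlap a gene at their 3′ end or within their span. The last 46 bases of Nhp2 (chromosome 11, 51619773 to 51623718) overlap Rmnd5b, which had 66 reads in the pulldown of AF357425-High and 47 in that of AF357425-Low and a ratio of 0.90 (0.34 to 1.47). This lies near the 1.11 of Nhp2, and whether reads of these genes were divided correctly was not tested. The last 44 bases of Dkc1 (chromosome X, 75095854 to 75109776) overlap Mpp1, whose pulldown ratio was 0.38 (0.27 to 0.49). Dkc1 also spans the small nucleolar RNA gene Gm25520, which had 1 read in the whole-cell library of AF357425-High and 0 in the other libraries. The span of Shq1 (chromosome 6, 100571811 to 100671183) holds the pseudogene Gm6565, with 2 reads in each pulldown. Nop10 (chromosome 2, 112261926 to 112262898), Gar1 (chromosome 3, 129824912 to 129831407), Naf1 (chromosome 8, 66859943 to 66890564) and Coil (chromosome 11, 88973935 to 88991613) overlap no other RefSeq gene. Whether the annotation behind the deposited counts has the same overlaps was not tested.

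The members also differed in their share of pulldown reads relative to their share in whole-cell RNA. These ratios compare shares of reads and do not measure the fraction of a messenger RNA that was pulled down. Dkc1 reached 22.6 CPM in the AF357425-High pulldown against 27.8 CPM in whole-cell RNA, and 28.3 CPM against 27.7 CPM in AF357425-Low. Its log2 ratios of pulldown over whole-cell RNA, by library totals, were -0.30 (-0.47 to -0.13) and 0.03 (-0.12 to 0.19). By this scaling 6 of the 8 genes were past the 2-fold line in the lower direction in AF357425-High, against 74.1% of 12773 measured genes, and 4 in AF357425-Low, against 62.4% of 12774. None was past it in the higher direction, against 2.41% and 2.58% of genes. Among the 6 is Wrap53, whose limit is given below. Medians of all measured genes were -2.13 in AF357425-High and -1.73 in AF357425-Low, and Dkc1 lay above 90.5% and 89.7% of genes. Dkc1 thus took 51.1% (48.2 to 54.1) of the reads of the 8 genes in the AF357425-High pulldown and 50.3% (47.8 to 52.8) for AF357425-Low, against 17.8% (16.5 to 19.1) and 19.7% (18.3 to 21.2) in whole-cell RNA. Nop10 and Nhp2, its partners in the core, lay far lower. Nop10 had pulldown ratios of -3.78 (-4.20 to -3.38) in AF357425-High and -3.43 (-3.83 to -3.06) in AF357425-Low, and Nhp2 had -3.19 (-3.51 to -2.88) and -3.82 (-4.24 to -3.43).

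**Figure D3:**
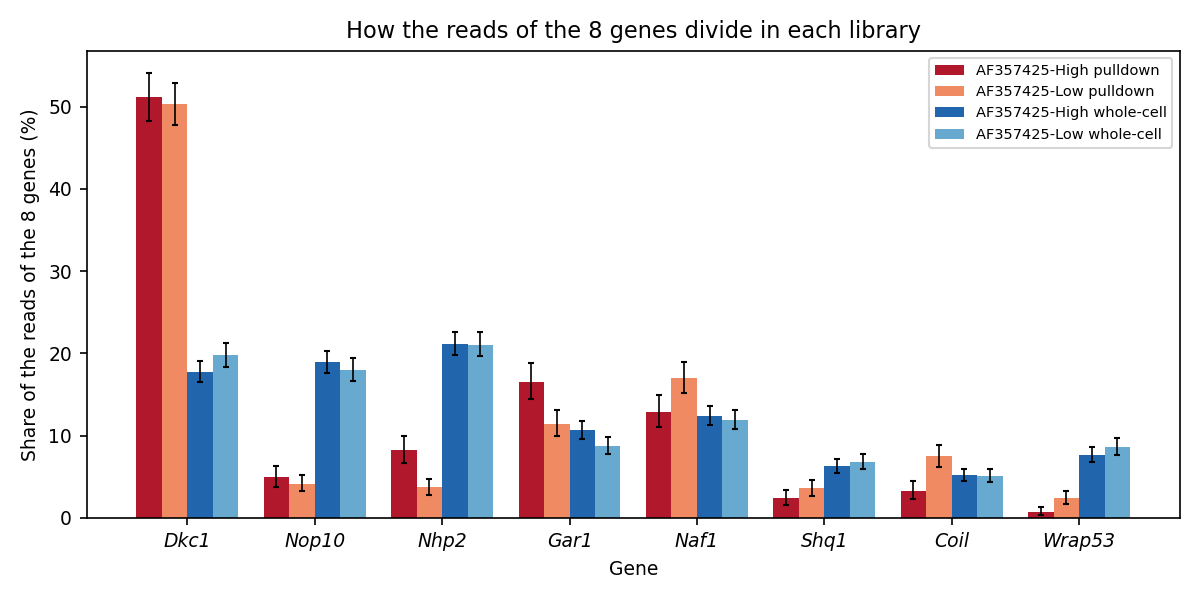
Share of the reads of the 8 genes that fell on each gene, in percent, in the 2 pulldowns (red) and the 2 whole-cell libraries (blue), with exact 95% counting intervals; reads were not divided by gene length, so bars are to be compared within a gene. Dkc1 takes 51.1% and 50.3% in the pulldowns against 17.8% and 19.7% in whole-cell RNA.

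Gar1 lay above the median of all genes, with ratios of -1.19 (-1.45 to -0.93) in AF357425-High and -0.93 (-1.21 to -0.65) in AF357425-Low. For Naf1 they were -1.77 (-2.05 to -1.50) and -0.80 (-1.04 to -0.57), and for Shq1 -3.23 (-3.87 to -2.65) and -2.24 (-2.69 to -1.81). Coil had -2.50 (-3.05 to -1.98) in AF357425-High and -0.77 (-1.12 to -0.41) in AF357425-Low. Coil thus lay below the median of all genes in AF357425-High and above it in AF357425-Low. Wrap53 had the lowest ratio of the 8 in AF357425-High, -5.28 (-6.50 to -4.28), and -3.19 (-3.73 to -2.69) in AF357425-Low. It had 0.309 CPM in the AF357425-High pulldown and reached the minimum mean of 1 CPM there only through whole-cell RNA.

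Nop10, Nhp2, Shq1 and Wrap53 were past the 2-fold line in the lower direction in both states. That is 4 of 8, against 60.6% of 12382 genes measured in both states, and none of the 8 was higher, against 1.42%. The share of members is near that of all genes, and it counts Wrap53 despite its low level in the AF357425-High pulldown. Another scaling moves all genes by the same amount and so keeps their order, but not the sign. By TMM, Dkc1 had 1.75 in AF357425-High and 1.69 in AF357425-Low, past the line in both, with no share of all genes given beside it. Gar1 turned to 0.86 and 0.73 and Naf1 to 0.28 and 0.85, in the same order of states, and Coil to 0.89 in AF357425-Low, with -0.45 in AF357425-High.

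**Figure D4:**
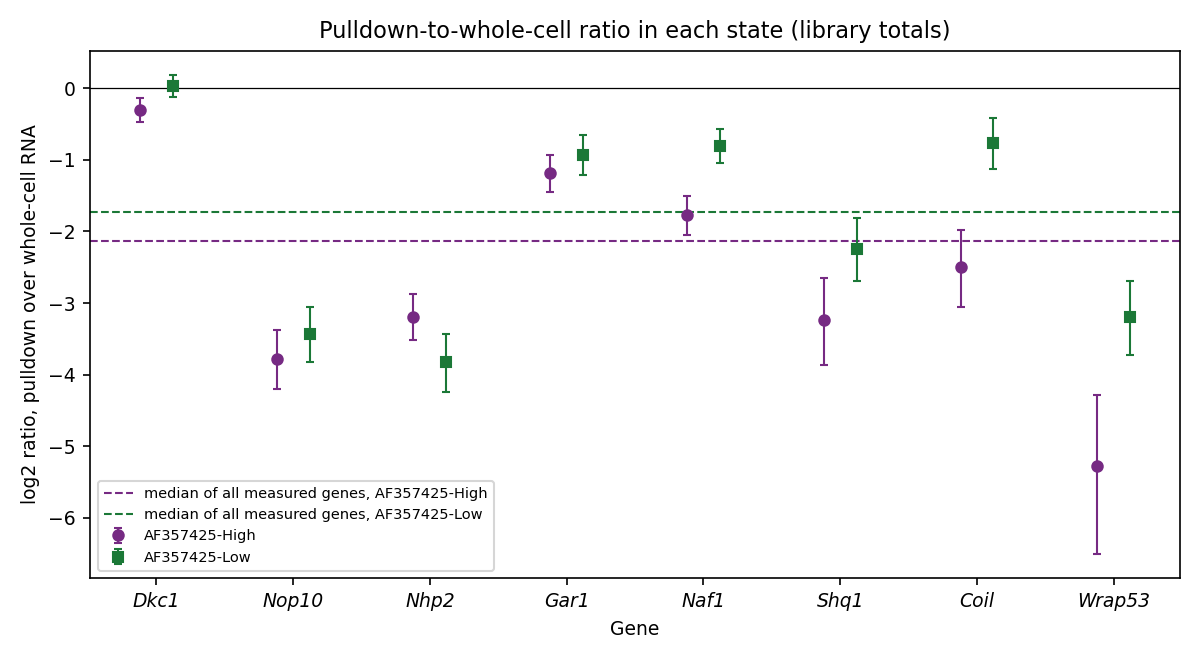
Log2 ratio of pulldown over whole-cell RNA by library totals for each gene in AF357425-High (purple circles) and AF357425-Low (green squares), with 95% counting intervals and dashed lines at the medians of all measured genes, -2.13 and -1.73. Dkc1 lies near 0 in both states, and Coil and Wrap53 lie lower in AF357425-High than in AF357425-Low.

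Subtracting the whole-cell state ratio of a gene, AF357425-High over AF357425-Low, from its pulldown state ratio gives a change that joins all 4 libraries. That change was -1.37 (-1.99 to -0.76) for Coil, lower than for all but 3.14% of the 11356 genes that had 10 or more reads in every library. Naf1 had -0.61 (-0.96 to -0.25) and Shq1 -0.63 (-1.35 to 0.08). Nhp2 had 1.00 (0.50 to 1.49), and Gar1, Dkc1 and Nop10 had 0.10 (-0.27 to 0.47), 0.03 (-0.20 to 0.25) and 0.02 (-0.52 to 0.56). With library totals the changes of Dkc1, Nop10 and Gar1 turned negative, and Coil, at -1.74, passed the 2-fold line. No share of all genes by totals is given beside Coil. Wrap53 had too few reads in the AF357425-High pulldown to be measured. None of the 7 was past 2-fold, against 2.65% of genes higher and 1.64% lower, and intervals lay wholly above 0 for 1 and wholly below 0 for 2 of them, against 28.6% and 28% of genes.

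Small Cajal body RNAs are handled by the Cajal body proteins. Of 9 in the tables, 5 were measured in the pulldown, and these had positive ratios by TMM and by library totals, with medians of 1.08 and 0.78. By TMM 2 of 5 were past the 2-fold line, beside 3.47% of all genes, and by totals 1 of 5, Scarna6. No share of all genes by totals is given beside the latter. Scarna2 had 875 reads in AF357425-High, against 468 in AF357425-Low, with a ratio of 1.31 (1.15 to 1.48), or 1.01 (0.85 to 1.17) by totals. Scarna6 had 83 and 17 reads (3.21 and 0.611 CPM) and a ratio of 2.70 (1.93 to 3.55), and it reached the minimum mean of 1 CPM only through AF357425-High. Scarna17 was the lowest of the 5, at 0.86 (0.45 to 1.28). In whole-cell RNA only Scarna13, at 0.37, and Scarna2, at -0.09, were measured, and neither was called. Terc, the telomerase RNA, named after its values were seen, had 13 and 2 reads and a ratio of 3.11 (0.97 to 6.30), below the minimum of 1 CPM, and 8 and 10 reads in whole-cell RNA. Snora23 was the only H/ACA snoRNA of 42 in the tables that was measured in the pulldown, with 92 and 69 reads and a ratio of 0.83 (0.36 to 1.30). In whole-cell RNA, Snora73b had 29 reads in AF357425-High, against 101 in AF357425-Low, a ratio of -1.88 (-2.53 to -1.27), and the other 4 measured were not called. That is 1 of 5 called lower, beside 0.133% of all measured genes. Of these RNA genes Scarna6, Scarna13, Scarna17, Snora23 and Snora73b overlap another RefSeq gene, so their reads are uncertain, and Scarna2 overlaps none.

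Proteins that work beside the 8 were described in the same way. Among 9 measured chaperones and partners of H/ACA assembly, none was called in the pulldown and the median ratio was -0.01. Of all measured genes, 3.47% were called higher and 2.88% lower there. Tcof1, the nucleolar protein treacle, was highest at 0.60 (0.44 to 0.76) and Wdr92, a partner of the R2TP chaperone, lowest at -0.70 (-1.21 to -0.21). Of 19 measured proteins of the SMN complex and Cajal bodies, 1 was past the line by TMM, beside 2.88% of all genes lower: Ice2, a subunit of the little elongation complex of small nuclear RNA genes, had 120 reads in AF357425-High, against 492 in AF357425-Low, with a ratio of -1.62 (-1.92 to -1.33). By library totals 3 of 19 were, with Zpr1 at -1.50 (-1.84 to -1.18) and Fam118b at -1.44 (-1.86 to -1.04) beside Ice2. Library totals moved every pulldown state ratio by -0.30, and no share of all genes past the line by totals is given. Fam118b overlaps another RefSeq gene, so its reads are uncertain. The median of these 19 was -0.13, with 11 below 0, and the helicase gene Ddx20 was highest at 0.80 (0.49 to 1.11). In whole-cell RNA none of 22 was called, beside 0.118% of genes higher and 0.133% lower, and Ice2 had 290 and 266 reads. Of the 4 core proteins of C/D particles, none was called in the pulldown. The messenger RNA of fibrillarin itself, Fbl, had 326 and 188 reads and was highest at 1.21 (0.94 to 1.47) and Nop56 lowest at -0.46 (-0.55 to -0.37). The change of ratio between the states was 1.02 (0.73 to 1.31) for Fbl and 1.02 (0.38 to 1.66) for Snu13. It went the other way for Nop56, at -0.46 (-0.58 to -0.33), and Nop58, at -0.42 (-0.53 to -0.30). Nop56 and Nop58 span snoRNA genes, so their reads are uncertain. Past the 2-fold line in the lower direction in both states, for pulldown over whole-cell RNA, were 5 of 9 chaperones, 12 of 22 SMN complex and Cajal body proteins and 2 of 4 C/D core proteins, beside the 60.6% of all genes given above.

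The genes with the profile nearest to the median of the measured members were found over 3 log2 ratios, namely both state ratios and the AF357425-Low ratio of pulldown over whole-cell RNA. Among 11349 other genes that passed the same read minimum, the nearest included Fbxo34, at a distance of 0.039, and Trappc8, at 0.060. The members themselves lay between 0.44 (Naf1) and 3.11 (Nhp2) from that median.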

How the data were processed

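The authors deposited raw fragment counts for each gene, with pulldown and whole-cell libraries in separate tables. Per the submitters' processing notes, cutadapt 2.4, STAR 2.6.0c, HTSeq 0.9.1, StringTie 1.3.4 and the build GRCm38 were used. Of the annotation and strand setting no source used here says anything, so overlapping and antisense genes may be mixed. Summary lines of HTSeq were left out of library totals and used for the shares of unassigned fragments. Symbols matched 55450 of 55536 gene IDs.

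A gene was measured where its mean over the compared libraries reached 1 CPM. TMM factors came from edgeR 4.0.16 (R 4.3.3), separately for pulldown and whole-cell tables, and scaled the comparison of states. Pulldown and whole-cell RNA were compared by library totals. The change between states needed 10 reads of a gene in every library. Intervals were exact (Clopper-Pearson, scipy 1.17.1) for ratios of 2 libraries and for shares, while the change had a normal-approximation interval of the log ratio. The computation of state ratios and of the change was checked on simulated tables that held counting error only. That check cannot show how libraries vary, and it did not cover pulldown over whole-cell RNA. Without molecular identifiers, PCR copies are not separate molecules, and intervals cover counting error only. Alternatives were library totals, DESeq2 1.42.0 size factors, totals without the 20 most abundant genes or without mitochondrial ribosomal RNA, and other minimums.

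All members were named, and from each list genes past the line, or else the highest and lowest. Members and lists were chosen with earlier results of these data known. Positions and windows are from RefSeq (GRCm38.p6). Of the genes with the nearest profile, 1 is not reported here.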

Additional observations from a re-analysis of the deposited data

How the results depend on the processing

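No paired analysis was possible because each group has 1 library. State ratios of single members stayed within their counting intervals in 40 of 40 values under the alternatives in whole-cell RNA and in 28 of 31 in the pulldown, with the exceptions all under library totals (Dkc1 -0.33, Gar1 0.18 and Naf1 -0.75). Each alternative moves all genes of a comparison by the same amount, such as 0.057 in whole-cell RNA under library totals. These counts are therefore not separate checks of each gene. With library totals, 1 member, Coil, passed the 2-fold line in the pulldown, and 1, again Coil (-1.74), in the change between the states, against 0 with TMM. Shares of all genes past the line are given for the main scaling only, so counts under the alternatives have none beside them. At a mean of at least 5 CPM only 3 members were measured in the pulldown.

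Pulldown-to-whole-cell ratios depend on the scaling. Without mitochondrial ribosomal RNA in the totals, the median of the 8 was -1.39 in AF357425-High and -0.27 in AF357425-Low, against -2.85 and -1.58. With TMM it was -0.79 and 0.069, 3 members were past the line in AF357425-High (1 higher and 2 lower), against 6, and Naf1 turned to 0.28 there. No share of all genes past the line by TMM is given for this comparison. Signs turned in 5 values in AF357425-High (Dkc1 and Gar1 under both scalings, Naf1 under TMM) and in 6 in AF357425-Low (Gar1, Naf1 and Coil under both). The summed pulldown level moved to 121 and 140 CPM without mitochondrial ribosomal RNA. Of single-member values, 16 of 23 in AF357425-High and 16 of 24 in AF357425-Low moved outside their counting intervals. Levels per length were not run, and no library could be left out. With 8 to 117 pulldown reads, Nop10, Nhp2, Shq1, Coil and Wrap53 are limited by depth. Library totals for the partner lists and for the summed reads of the members were added after seeing the data.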

Other observations

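Telomerase and telomere genes and the stand-alone pseudouridine synthases held no gene past the 2-fold line between the states. Of all measured genes, 3.47% were past it higher and 2.88% lower in the pulldown, with 0.118% and 0.133% in whole-cell RNA. Lists this short can hold none at such shares. Tert, the reverse transcriptase of telomerase, had 26 reads in the pulldown of AF357425-High cells, against 35 in that of AF357425-Low cells, and 221 and 240 in whole-cell RNA of the same states. None of 10 measured genes of the telomerase list was past the 2-fold line in the pulldown, with a median log2 ratio of 0.02 by TMM and -0.28 by library totals. Tep1, a telomerase-associated protein, was lowest at -0.73, with 171 reads for AF357425-High and 378 for AF357425-Low, and Stn1, of the CST complex at telomere ends, highest at 0.23 (-0.39 to 0.84). In whole-cell RNA, none of 12 was past the line. The lowest and highest were Ten1, also of the CST complex, at -0.77 (-1.28 to -0.28) and the telomere-binding Terf1 at 0.33 (0.04 to 0.62).

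Of 12 pseudouridine synthases that act without a guide RNA, 7 were measured in the pulldown and none was past the line. The shares of all genes given above apply here too. Rpusd2 was highest at 1.10 (0.70 to 1.51), with 137 reads for AF357425-High and 85 for AF357425-Low, and Pus10 lowest at -0.60 (-0.91 to -0.31). In whole-cell RNA none of 12 was past the line, with Trub1 at 0.35 (0.08 to 0.63) and Rpusd3 at -0.86 (-1.35 to -0.38). Stn1, Tep1, Ten1 and Pus10 overlap another RefSeq gene, so their reads are uncertain.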
